A study of Homo sapiens with 6 samples.

Results

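PIK3CA, PIK3CB, PIK3CD, PIK3R1, PIK3R5, AKT1, AKT2, MTOR and RPTOR encode kinases, regulatory subunits and a scaffold of the PI3K-AKT-mTOR pathway. They were taken as a list of named genes, and all 9 were found by symbol and Ensembl identifier among the 57905 genes of the count table. RNA-SEQ libraries were made from NALM6 cells, a human line of B cell precursor acute lymphoblastic leukemia, and 3 libraries were analysed per treatment. The cells received either the solvent DMSO or 500 nM of THZ1, a covalent inhibitor of the kinase CDK7, and were harvested at 24 h. No genetic change separated the treatments, and all libraries came from this cell line at a single dose and time. The labels do not say whether the libraries of a treatment came from separate cultures, so p-values measure the spread between these libraries, which may be technical.

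Class I PI3K enzymes pair a catalytic subunit with a regulatory subunit and phosphorylate a membrane lipid after receptors at the cell surface are engaged. The lipid recruits AKT kinases, which restrain several targets by phosphorylation and lift the brake that the TSC complex puts on mTOR complex 1, a driver of protein synthesis and cell growth. In B cell precursors the pathway carries signals of the pre-B cell receptor and of cytokine receptors, and the delta catalytic subunit is the one best known in this lineage.

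Sequences of the start regions are shown for PIK3CD and PIK3R1, a catalytic and a regulatory subunit that bind each other, for the paralogues AKT1 and AKT2, and for RPTOR, the 1 gene of the list that was not called. Each is the 300 bases from 250 before to 50 after the first transcript start listed by RefSeq, on build GRCh38.p14, 5′ to 3′ on the strand of the gene. The windows are chr1:9651481-9651780 (PIK3CD, plus strand), chr5:68215506-68215805 (PIK3R1, plus strand), chr14:104795699-104795998 (AKT1, minus strand), chr19:40285296-40285595 (AKT2, minus strand) and chr17:80544588-80544887 (RPTOR, plus strand). Capitals mark the exact matches, on either strand, of the TATA box letters TATAAA, the CCAAT box, the GC box letters GGGCGG, the E box letters CACGTG and the forkhead letters TGTTTAC.
PIK3CD: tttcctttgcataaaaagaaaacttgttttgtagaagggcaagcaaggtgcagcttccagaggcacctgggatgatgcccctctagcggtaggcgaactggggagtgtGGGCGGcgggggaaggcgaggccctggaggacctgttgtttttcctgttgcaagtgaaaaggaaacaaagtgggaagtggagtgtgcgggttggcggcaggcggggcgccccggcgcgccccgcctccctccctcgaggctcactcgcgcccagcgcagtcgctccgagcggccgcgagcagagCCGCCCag
PIK3R1: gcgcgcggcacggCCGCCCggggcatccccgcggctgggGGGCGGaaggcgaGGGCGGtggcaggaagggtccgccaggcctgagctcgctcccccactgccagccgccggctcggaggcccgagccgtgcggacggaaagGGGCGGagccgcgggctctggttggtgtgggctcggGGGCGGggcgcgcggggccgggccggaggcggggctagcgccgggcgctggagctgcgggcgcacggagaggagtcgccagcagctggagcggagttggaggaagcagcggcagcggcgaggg
AKT1: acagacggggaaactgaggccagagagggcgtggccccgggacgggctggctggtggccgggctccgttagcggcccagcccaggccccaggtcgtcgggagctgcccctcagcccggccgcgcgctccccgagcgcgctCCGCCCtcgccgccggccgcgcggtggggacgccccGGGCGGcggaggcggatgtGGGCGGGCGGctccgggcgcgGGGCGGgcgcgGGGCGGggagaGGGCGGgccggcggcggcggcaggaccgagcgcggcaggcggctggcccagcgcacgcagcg
AKT2: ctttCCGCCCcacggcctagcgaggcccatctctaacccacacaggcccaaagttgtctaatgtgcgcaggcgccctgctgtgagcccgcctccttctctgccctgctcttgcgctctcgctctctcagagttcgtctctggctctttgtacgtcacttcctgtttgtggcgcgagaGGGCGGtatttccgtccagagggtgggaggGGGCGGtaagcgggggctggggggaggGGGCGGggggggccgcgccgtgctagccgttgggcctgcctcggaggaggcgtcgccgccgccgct
RPTOR: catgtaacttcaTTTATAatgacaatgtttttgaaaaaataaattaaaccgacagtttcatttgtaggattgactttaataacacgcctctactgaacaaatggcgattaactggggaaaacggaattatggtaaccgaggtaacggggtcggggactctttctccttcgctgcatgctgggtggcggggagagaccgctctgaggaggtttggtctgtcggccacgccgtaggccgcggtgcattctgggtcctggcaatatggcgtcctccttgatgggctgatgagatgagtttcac

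All 9 genes matched a start region in the RefSeq table. Some have further ones, such as PIK3R1 with 4 in all and PIK3CD with 3, and the matches below are those of the first listed. GGGCGG, the letters of the GC box, was found 7 times at AKT1, 5 times at PIK3R1, 4 times at AKT2, 4 times at PIK3R5, 3 times at PIK3CB, 2 times at PIK3CD, 2 times at MTOR and 1 time at PIK3CA, with overlapping matches counted apart. RPTOR held 0 matches of it. Among the 35116 start regions of the table, 45.0% held at least 1. The windows of AKT1 and PIK3R1 were 83.3% and 80.0% G and C, against a median of 58.7% over all start regions, and the window of RPTOR was the lowest of the 9 with 48.0%. TATAAA was found at RPTOR alone (11.5% of all start regions), TGTTTAC at PIK3CA alone (3.42%), CCAAT 3 times at MTOR and 1 time each at PIK3CA and PIK3CB (34.6%), and CACGTG at 0 of the 9 (7.26%). These matches are letters in a window and were not tied to binding of any factor.

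Summed over genes, the libraries held 11015480 to 11164840 counts under DMSO and 7876402 to 8314306 under THZ1. Levels are given as CPM, counts relative to the library size after TMM scaling, and a floor of 3 counts was at most 0.253 CPM under DMSO and 0.415 CPM under THZ1, which covers counting error only. All 10 B cell precursor markers were above the floor, and their summed level was 3569 to 3836 CPM under DMSO and 1666 to 1757 CPM under THZ1. The 4 T cell markers that could be matched summed to at most 0.969 CPM in any library. Monocyte or granulocyte markers (4 of 5 above the floor) summed to 3.88 to 4.59 CPM under DMSO and 17.3 to 18.4 CPM under THZ1. Erythroid markers (1 of 4) summed to 0.164 to 0.253 CPM and 2.94 to 3.81 CPM, and fibroblast markers (2 of 4) to 11.4 to 12.9 CPM and 18.8 to 20.6 CPM, in the same order. Depth and these marker sums moved with the treatment, and their part in the results below was not tested. In such bulk libraries, fewer cells expressing a gene and less RNA of it per cell cannot be told apart, and CPM gives no absolute amount of RNA.

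THZ1 treatment lowered the transcripts of every class I catalytic and regulatory subunit in the list, of AKT1 and of MTOR, whereas AKT2 was higher (a direction that turned with library sizes alone) and RPTOR was not called. Of the 9 genes, 7 were called lower and 1 higher by the adjusted p-value alone (threshold 0.05). Of all 16622 genes tested, 84.5% were called, 41.1% lower and 43.5% higher, so that the 8 calls in all are near the background whereas the direction leans to lower. The background of like genes leans to lower too. Of the protein-coding genes tested 47.6% were called lower, and 59.3% to 63.0% of those in the classes of gene length that hold all but AKT1. With a log2 fold change of 1.5 or more required in either direction as well, PIK3R1 and PIK3R5 were called lower (12.9% of all genes) and 0 genes higher (24.6%). Of these, PIK3R5 passed the filter on counts through its DMSO-treated libraries alone. The libraries of both treatments did not overlap for 8 of the 9 genes, with all THZ1-treated libraries below in 7 and above in 1, against 84.7% of all genes, 41.3% below and 43.4% above. The median log2 fold change of the 9 genes was −1.10, beside 0.03 over all genes tested and −0.20 over the 11929 protein-coding genes tested. The plot of levels by library shows the separation gene by gene.

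**Figure D1:**
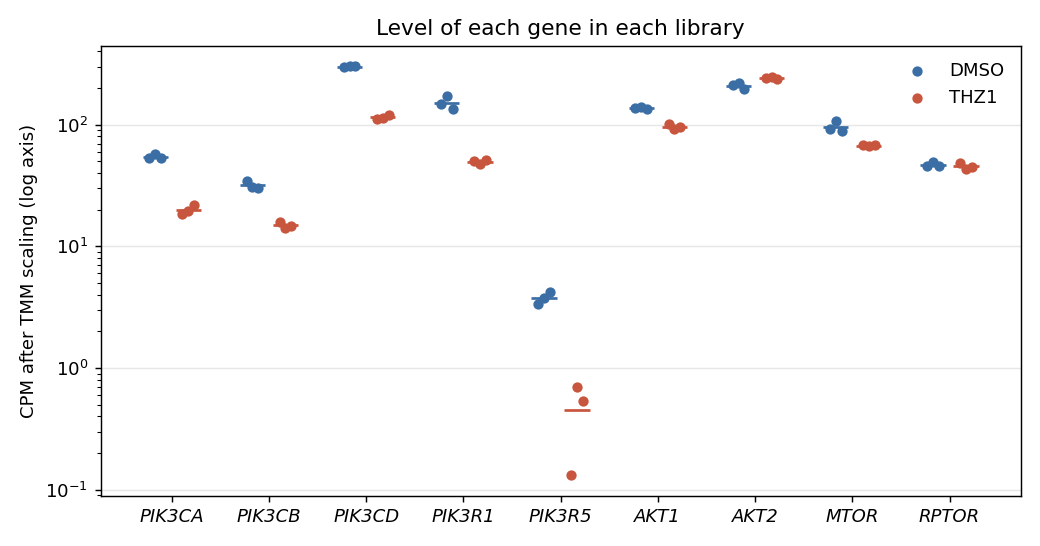
Level of each of the 9 genes in each library, in CPM after TMM scaling on a log axis, with blue points for the 3 DMSO-treated libraries, red points for the 3 THZ1-treated libraries and a line at the mean. The red points lie below the blue points for 7 genes, lie above them for AKT2 (211, 219 and 196 CPM against 243, 244 and 235 CPM, a direction that turned with library sizes alone) and overlap with them for RPTOR.

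PIK3CD encodes p110 delta, the catalytic subunit most restricted to leukocytes. The gene (ENSG00000171608) lies on chromosome 1 from 9689947 to 9789172 of GRCh37, on the plus strand, with 24 exons in its canonical transcript. It had 296, 302 and 301 CPM in the DMSO-treated libraries and 112, 114 and 119 CPM in the THZ1-treated libraries. The levels did not overlap, and the mean of 299 ± 3.26 CPM under DMSO was 2.60-fold that of 115 ± 3.74 CPM under THZ1 (SD, n = 3 libraries each). Per kilobase of exon sequence, PIK3CD was the most abundant of the 9 genes under DMSO, at 31.3 ± 0.341 CPM per kb.

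PIK3CA encodes p110 alpha, a broadly expressed catalytic subunit. The gene (ENSG00000121879) lies on chromosome 3 from 178865902 to 178957881, plus strand, with 21 exons. It had 53.5, 57.0 and 53.2 CPM under DMSO and 18.5, 19.5 and 21.8 CPM under THZ1, so that the THZ1-treated libraries kept 36.5% of the DMSO mean. PIK3CB encodes p110 beta, which also answers to G protein-coupled receptors. It (ENSG00000051382) lies on chromosome 3 from 138371540 to 138553770, minus strand, with 24 exons. It had 34.5, 30.7 and 30.4 CPM under DMSO and 15.8, 14.1 and 14.7 CPM under THZ1. Again no THZ1-treated library reached the lowest DMSO-treated library for either gene.

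The log2 fold changes of PIK3CD, PIK3CA and PIK3CB were −1.38 (standard error, SE, 0.07), −1.45 (0.10) and −1.10 (0.12). Their adjusted p-values were 3.8e-18, 1.8e-14 and 4e-10 after Benjamini-Hochberg adjustment of edgeR's quasi-likelihood test. PIK3CG, the class I catalytic subunit outside the list that pairs with PIK3R5, had 51.2 ± 8.29 CPM under DMSO and 41.0 ± 2.02 CPM under THZ1. Its log2 fold change was −0.32 (SE 0.10, adjusted p = 0.0045 by edgeR), which was no longer called with upper quartile factors (−0.13, adjusted p = 0.24) or when 10 counts were required in every library (−0.19, adjusted p = 0.098). The levels of PIK3CA and PIK3CD may hold reads of genes on the other strand, because the strand setting of the counting is not given. KCNMB3, opposite PIK3CA, had 87 to 100 counts per DMSO-treated library and 1 to 2 per THZ1-treated library, beside 631 to 696 and 141 to 163 counts of PIK3CA. CLSTN1, opposite PIK3CD, went from 1877 to 2071 counts down to 588 to 653, and PIK3CD-AS1 from 12 to 24 counts up to 126 to 175, beside 3565 to 3679 and 823 to 892 counts of PIK3CD.

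PIK3R1 encodes p85 alpha, the regulatory subunit that stabilises the class IA catalytic subunits and links them to receptors. The gene (ENSG00000145675) lies on chromosome 5 from 67511568 to 67597649, plus strand, with 16 exons. It had 149, 173 and 134 CPM under DMSO and 49.8, 47.5 and 50.8 CPM under THZ1. The DMSO-treated libraries were spread over a wider range than the THZ1-treated ones, and the treatments did not overlap. PIK3R1 fell 3.07-fold, from 152 ± 19.6 CPM to 49.4 ± 1.71 CPM, with a log2 fold change of −1.62 (SE 0.09, adjusted p = 3.6e-17 by edgeR).

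PIK3R5 encodes p101, the adaptor of the gamma catalytic subunit. The gene (ENSG00000141506) lies on chromosome 17 from 8782228 to 8869029, minus strand, with 19 exons. It was scarce in these cells, with 41, 46 and 50 counts in the DMSO-treated libraries and 1, 5 and 4 counts in the THZ1-treated libraries. These counts are 3.39, 3.77 and 4.22 CPM under DMSO and 0.131, 0.692 and 0.535 CPM under THZ1, and 1 THZ1-treated library lay under the floor of 3 counts. The summed 10 counts under THZ1 against 137 under DMSO gave a scaled level 8.46-fold lower, with an exact binomial 95% interval of 4.46 to 18.0 that covers counting error only. The fitted log2 fold change was −3.04 (SE 0.41, adjusted p = 6.1e-08 by edgeR), at percentile 1.59 of the genes tested. Without the THZ1-treated library of 1 count it was −2.61. PIK3R5 passed the filter on counts through its DMSO-treated libraries alone, so its p-value is no separate support for the fall.

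No other class I regulatory subunit was called with TMM. PIK3R3, which encodes p55 gamma, had 48.7 ± 5.38 CPM under DMSO and 46.7 ± 2.60 CPM under THZ1, had overlapping libraries and was not called (−0.06 on the log2 scale, adjusted p = 0.55 by edgeR), a direction that turned with RLE factors (0.01) and upper quartile factors (0.13). It was called lower with library sizes alone (−0.31, adjusted p = 0.0047). PIK3R2, which encodes p85 beta, had 0, 0 and 0 counts under DMSO and 4, 2 and 4 under THZ1 and did not pass the filter. Its annotated span overlaps ENSG00000268173 on the same strand, which had 0 counts in each DMSO-treated library and 52, 28 and 30 under THZ1, so the count of PIK3R2 is uncertain. PIK3R6 was not analysed here.

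AKT1 and AKT2 encode paralogous serine/threonine kinases. AKT1 (ENSG00000142208) lies on chromosome 14 from 105235686 to 105262088, minus strand, with 15 exons, and AKT2 (ENSG00000105221) on chromosome 19 from 40736224 to 40791443, minus strand, with 14 exons. AKT1 had 138, 139 and 134 CPM under DMSO and 101, 93.0 and 95.9 CPM under THZ1, without overlap. Its log2 fold change was −0.50 (SE 0.07, adjusted p = 1.6e-07 by edgeR), from 137 ± 2.77 CPM to 96.5 ± 3.83 CPM. AKT2 had 211, 219 and 196 CPM under DMSO and 243, 244 and 235 CPM under THZ1, with every THZ1-treated library above every DMSO-treated one. Its log2 fold change was 0.21 (SE 0.07, adjusted p = 0.006 by edgeR), 1.15-fold, and it turned to −0.04 (adjusted p = 0.56) with library sizes alone in place of TMM. The call was also lost without a filter (0.12, adjusted p = 0.15) and by limma in the deposited FPKM table (0.12, adjusted p = 0.13).

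The ratio of AKT1 to AKT2 within a library does not depend on how libraries are scaled. On the log2 scale of counts it was −0.66 to −0.55 under DMSO and −1.39 to −1.27 under THZ1, a difference of −0.71 (SE 0.05). The difference was −0.74 in the deposited FPKM table. ENSG00000258430, opposite AKT1, had 544 to 686 counts under DMSO and 176 to 189 under THZ1, beside 1583 to 1690 and 672 to 765 counts of AKT1. ENSG00000205041, on the strand of AKT2, had 0 to 9 counts under DMSO and 44 to 53 under THZ1, beside 2322 to 2677 and 1761 to 1848 counts of AKT2.

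**Figure D2:**
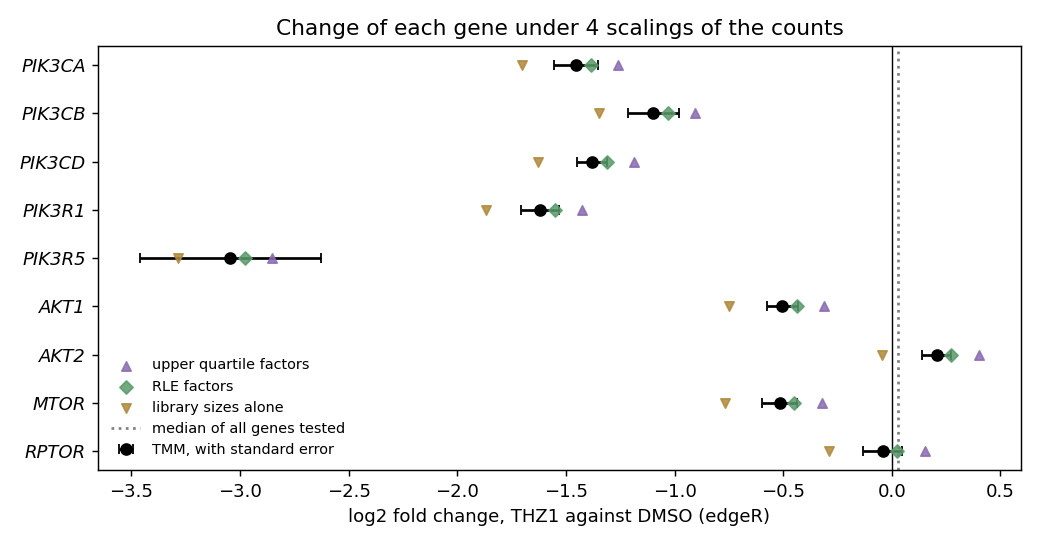
Log2 fold change of each of the 9 genes, THZ1 against DMSO, by edgeR with TMM (black points with SE), RLE factors, upper quartile factors and library sizes alone, with a dotted line at the median of all genes tested. The 7 genes called lower stay left of 0 under each scaling, whereas AKT2 turns to −0.04 with library sizes alone and RPTOR (−0.04 with TMM) turns to 0.03 with RLE and 0.15 with upper quartile factors.

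MTOR encodes the kinase shared by mTOR complexes 1 and 2. The gene (ENSG00000198793) lies on chromosome 1 from 11166592 to 11322613, minus strand, with 58 exons. It had 92.8, 107 and 89.5 CPM under DMSO and 68.0, 66.4 and 67.9 CPM under THZ1, and the treatments did not overlap. Its log2 fold change was −0.52 (SE 0.08, adjusted p = 9.3e-07 by edgeR), from 96.4 ± 9.25 CPM to 67.4 ± 0.869 CPM. RPTOR encodes raptor, the scaffold that brings substrates to mTOR complex 1. The gene (ENSG00000141564) lies on chromosome 17 from 78518619 to 78940171, plus strand, with 34 exons.

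RPTOR had 45.8, 49.2 and 46.0 CPM under DMSO and 48.3, 43.6 and 45.1 CPM under THZ1. The ranges overlapped, and the log2 fold change was −0.04 (SE 0.09, adjusted p = 0.67 by edgeR), a value that misses the threshold and does not show equal levels. It was called lower with library sizes alone (−0.29, adjusted p = 0.0044) and by limma in the deposited FPKM table (−0.29, adjusted p = 0.014). Within libraries, the log2 ratio of MTOR to RPTOR counts went from 0.96 to 1.12 under DMSO down to 0.49 to 0.61 under THZ1. The difference was −0.47 (SE 0.06), and −0.38 in the deposited FPKM table. MTOR-AS1, opposite MTOR, had 30 to 37 counts under DMSO and 7 to 21 under THZ1, beside 1061 to 1305 and 480 to 517 counts of MTOR, and the overlapping genes of RPTOR that have counts had at most 57 in any library.

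Per kilobase of exon sequence, the order of the 9 genes under DMSO was PIK3CD, AKT2, AKT1, PIK3R1, MTOR, RPTOR, PIK3CB, PIK3CA and PIK3R5. The levels ran from 31.3 CPM per kb for PIK3CD over 13.1 for AKT2 and 9.29 for PIK3R1 to 3.18 for PIK3CA and 0.505 for PIK3R5. Only AKT2 and AKT1 (12.5 CPM per kb) overlapped among neighbours in this order. With THZ1 the order was AKT2, PIK3CD, AKT1, MTOR, RPTOR, PIK3R1, PIK3CB, PIK3CA and PIK3R5, with no overlap between neighbours. AKT2 stood at 15.2 CPM per kb under THZ1 and PIK3CD at 12.0, so that the 2 genes changed places, and PIK3R1 with 3.02 fell below MTOR (5.04) and RPTOR (4.43). Levels per length depend on the exon sequence counted for each gene, which here was all annotated exons together. With the canonical transcript length the order turned in places, with AKT1 (46.3 CPM per kb) above AKT2 (39.8) and PIK3CA (5.90) above PIK3CB (5.09) under DMSO. Under THZ1, AKT1 (32.6) then stood above PIK3CD (21.3) and PIK3R1 (7.08) above RPTOR (6.67).

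The make-up of each family was also described as a share of the length-scaled counts within a library. Among the 4 class I catalytic subunits, PIK3CD held 69.4 ± 1.71% under DMSO and 59.1 ± 0.303% under THZ1, while PIK3CG held 14.6 ± 1.93% and 25.9 ± 0.828%. PIK3CA went from 7.04 ± 0.0790% to 5.69 ± 0.299%, and PIK3CB held 9.01 ± 0.763% and 9.32 ± 0.737% with overlapping libraries (two-sided exact permutation test, p = 0.5). Within class IA alone, PIK3CD held 81.2 ± 0.711% and 79.7 ± 0.563%. The delta subunit therefore remained the largest share in both treatments, and the gamma subunit held a larger share under THZ1.

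AKT2 held 51.0 ± 0.992% of the AKT transcripts under DMSO and 63.0 ± 1.05% under THZ1, and AKT1 held 48.6 ± 0.927% and 36.6 ± 1.01%. PIK3R1 held 58.5 ± 2.08% of PIK3R1 and PIK3R3 together under DMSO and 32.4 ± 1.87% under THZ1. For PIK3CD, PIK3CG and PIK3CA of class I, AKT1, AKT2 and PIK3R1 the treatments did not overlap, with p = 0.1 by the two-sided exact permutation test, the smallest p that 3 libraries against 3 allow, and an adjusted p of 0.133 over 12 shares. With the canonical transcript length in place of all exons, the difference was −7.93 percentage points for PIK3CD rather than −10.3, and 8.53 for PIK3CG rather than 11.3. AKT1 then held 53.6% and AKT2 46.1% under DMSO, so that the larger of both turned, and PIK3R1 held 45.9% under THZ1, with differences of −12.2 percentage points for AKT1 and −25.5 for PIK3R1.

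**Figure D3:**
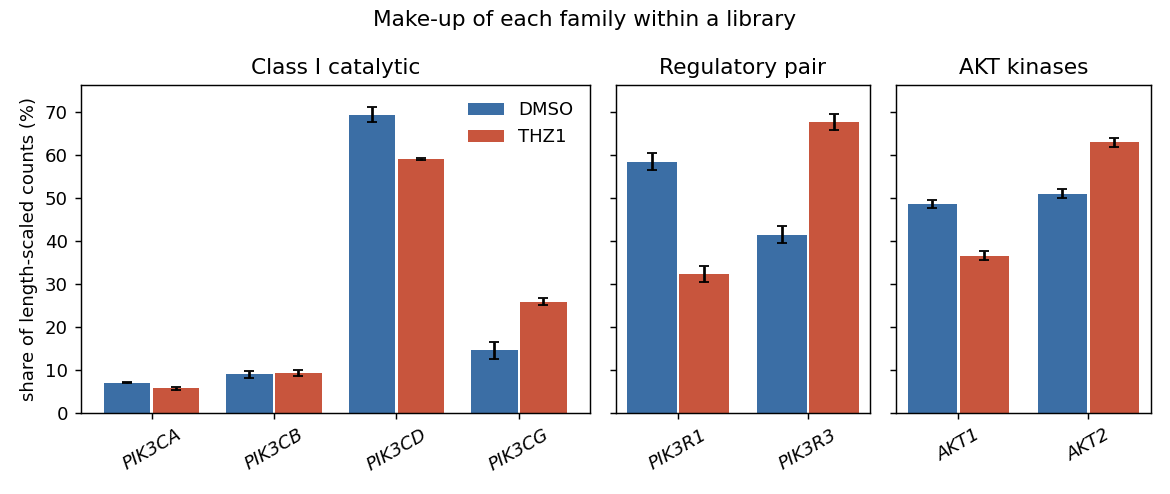
Share of length-scaled counts within a library, in percent, of the class I catalytic subunits, of PIK3R1 and PIK3R3, and of AKT1 and AKT2 among the AKT transcripts. Bars are means of 3 libraries under DMSO (blue) or THZ1 (red) and error bars are SD. PIK3CD goes from 69.4% to 59.1%, PIK3R1 from 58.5% to 32.4% and AKT1 from 48.6% to 36.6%.

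Ratios of 10 pairs of genes within libraries were compared in all, and 7 pairs did not overlap between the treatments (p = 0.1 by the two-sided exact permutation test, the smallest possible, adjusted p = 0.143). The log2 ratio of PIK3CA to PIK3CB counts differed by −0.36 (SE 0.12), and that of PIK3CB to PIK3R1 by 0.52 (0.13), which was 0.11 in the deposited FPKM table. The ratio of PIK3R5 to PIK3CG, adaptor to catalytic subunit, differed by −2.78 (0.59) and is among the 7. It rests on 1, 5 and 4 counts of PIK3R5 under THZ1. PIK3R5 passed the filter through its DMSO-treated libraries alone, so this ratio is no separate support for its fall. By contrast, the ratios of PIK3CD to PIK3CA (0.07, exact p = 0.3), PIK3CD to PIK3R1 (0.23, exact p = 0.2) and PIK3CA to PIK3R1 (0.16, exact p = 0.2) overlapped. Overlap in so small a design does not show that these transcripts fell by equal amounts, and the libraries of PIK3CD to PIK3R1 met only at 1.17 on the log2 scale. The ratio of RICTOR to RPTOR, the scaffolds of both complexes, differed by 0.18 (0.06), which turned to −0.23 in the deposited FPKM table.

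The rest of the pathway was read from 13 lists by role, written from general knowledge. Of 89 genes listed, 88 were matched and 83 tested, and of these 28 were called higher and 38 lower, with a median log2 fold change of −0.23. Without the 9 genes above, 27 of 74 were higher and 31 lower, with a median of −0.12. These shares, 36.5% and 41.9%, lie near the 43.5% and 41.1% of all genes. Of the protein-coding genes tested, 36.3% were called higher and 47.6% lower. The plot of pathway genes by role shows each list, and differences between lists were not tested.

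**Figure D4:**
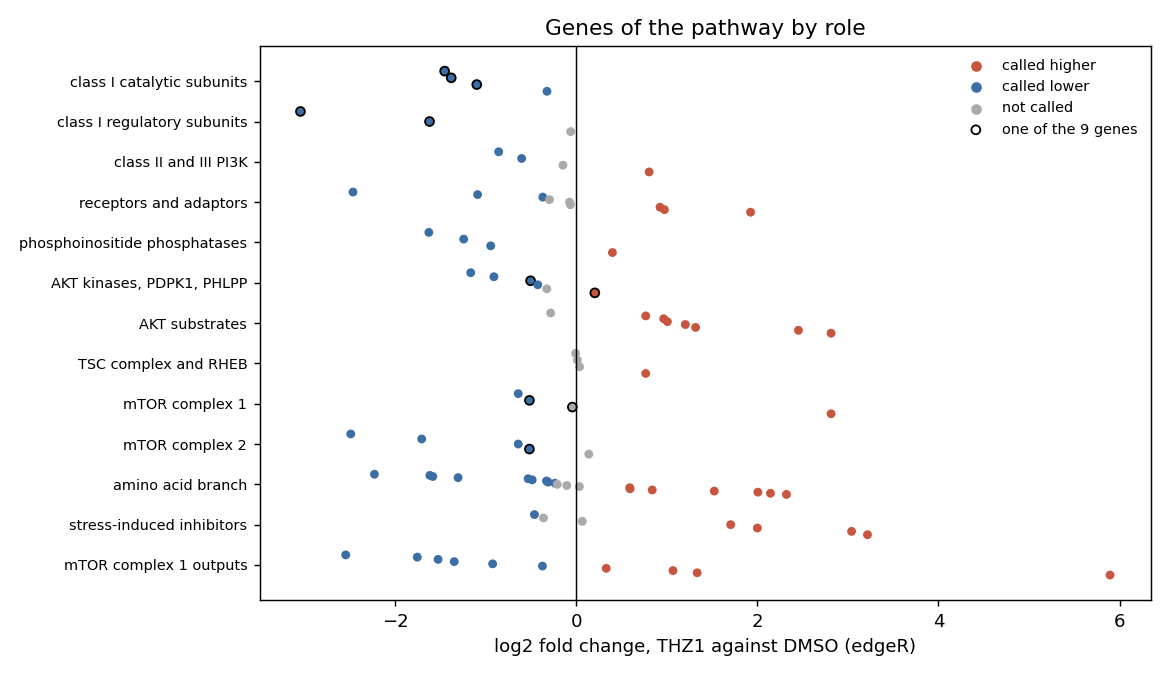
Log2 fold change, THZ1 against DMSO by edgeR with TMM, of the pathway genes tested, with a row for each role and a point for each gene, red for called higher, blue for called lower and grey for not called. Black rims mark the 9 genes. The class I catalytic and regulatory rows hold 0 genes called higher, whereas 7 of 8 AKT substrates were called higher. Of all genes tested, 43.5% were called higher and 41.1% lower, and of the protein-coding genes tested 36.3% and 47.6%. The rows were not tested as sets. AKT2 turns to −0.04 with library sizes alone.

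Upstream of PI3K, 3 of 9 receptors and adaptors rose and 3 fell, against 43.5% and 41.1% of all genes. INSR, the insulin receptor, fell from 71.8 ± 7.09 CPM to 13.0 ± 1.59 CPM, and the adaptors GAB1 and PIK3AP1 had log2 fold changes of −1.09 and −0.37. IRS2, an adaptor of the insulin and IGF1 receptors, rose from 17.0 ± 2.02 CPM to 64.7 ± 4.09 CPM, with GRB2 and GAB2 at 0.97 and 0.93. Among class II and III enzymes, PIK3C2B rose (0.81) and PIK3C3 and PIK3R4, the catalytic and regulatory subunit of the class III complex, fell (−0.60 and −0.85).

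Among phosphatases that act on the PI3K product, INPP4A and INPP5D, which encodes SHIP1, fell (−1.24 and −0.94), and INPPL1, which encodes SHIP2, rose (0.40). PDPK1, the kinase that activates AKT, was lower (−0.42), and so were the AKT phosphatases PHLPP1 (−1.16) and PHLPP2 (−0.91).

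Transcripts of AKT substrates were higher in 7 of 8 cases (87.5%), with a median log2 fold change of 1.11. Of all genes tested 43.5% were called higher, and 36.3% of the protein-coding genes tested, and the list was not tested as a set. AKT1S1, which encodes PRAS40, an inhibitor of mTOR complex 1, rose from 30.2 ± 0.890 CPM to 213 ± 3.48 CPM. The transcription factors FOXO4 and FOXO1 rose by 2.45 and 1.01 on the log2 scale, the kinases GSK3A and GSK3B by 1.32 and 1.21, the apoptosis gene BAD by 0.97 and TSC2 by 0.77. FOXO4 (7.68 kb), AKT1S1 (9.43 kb), BAD (14.9 kb) and GSK3A (16.4 kb) span little of the chromosome, whereas TSC2 (41.5 kb), FOXO1 (111 kb) and GSK3B (274 kb) are longer. The part of gene span in this rise was not tested. FOXO3 had 18.2 ± 2.80 CPM under DMSO and 15.01 ± 2.49 CPM under THZ1 and was not called (−0.28, adjusted p = 0.069 by edgeR). It was called lower without DMSO-treated library 3 (−0.40, adjusted p = 0.0056), without THZ1-treated library 2 (−0.41, adjusted p = 0.024), with library sizes alone (−0.53) and in the FPKM table (−0.83). These are transcript levels, and phosphorylation of the proteins was not measured here.

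In the TSC complex and RHEB, TSC2 alone was called, whereas TSC1 (0.01, adjusted p = 0.88), TBC1D7 (−0.01, adjusted p = 0.96) and RHEB (0.04, adjusted p = 0.65) were not by edgeR with TMM, and the sign of each turned under other scalings. With upper quartile factors TSC1 (0.21, adjusted p = 0.024) and RHEB (0.23, adjusted p = 0.0081) were called higher by edgeR. With library sizes alone TSC1 (−0.24, adjusted p = 0.014), RHEB (−0.21, adjusted p = 0.016) and TBC1D7 (−0.25, adjusted p = 0.023) were called lower. In mTOR complex 1, MLST8, a subunit of both complexes, fell with MTOR (−0.64), and AKT1S1 rose. In mTOR complex 2, 4 of 5 genes fell (41.1% of all genes) and 0 rose (43.5% of all genes). MAPKAP1, which encodes SIN1, fell from 102 ± 3.11 CPM to 18.3 ± 2.27 CPM and PRR5, which encodes protor-1, from 13.6 ± 2.51 CPM to 4.17 ± 1.06 CPM. RICTOR, the scaffold of complex 2, had 27.6 ± 2.09 CPM and 30.4 ± 2.37 CPM and was not called (0.14, adjusted p = 0.22 by edgeR), with −0.11 under library sizes alone. RICTOR was called higher with upper quartile factors (0.33, adjusted p = 0.0049) and when 10 counts were required in every library (0.27, adjusted p = 0.021), and lower by limma in the FPKM table (−0.47, adjusted p = 0.009). DEPTOR, an inhibitor in both complexes, had 6, 11 and 10 counts under DMSO and 3, 3 and 3 under THZ1 and was not tested, and neither were PRR5L, INPP4B and PIK3C2G, with at most 5 counts in any library.

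The amino acid branch carries nutrient signals to mTOR complex 1 at the lysosome. It was mixed, with 7 of 19 genes higher and 9 lower, against 43.5% and 41.1% of all genes. Some of these calls depend on the processing. With upper quartile factors LAMTOR1 (−0.13, adjusted p = 0.21), LAMTOR5 (−0.04, adjusted p = 0.7) and SEH1L (−0.12, adjusted p = 0.14) were no longer called lower by edgeR. RRAGB was not called higher with library sizes alone (0.35, adjusted p = 0.064 by edgeR) or in the FPKM table (0.21, adjusted p = 0.33 by limma). FLCN, folliculin, rose from 29.9 ± 1.05 CPM to 149 ± 19.5 CPM, and RRAGD, a Rag GTPase, fell from 54.2 ± 1.63 CPM to 11.6 ± 2.20 CPM. Another Rag GTPase, RRAGA, rose from 25.7 ± 0.987 CPM to 103 ± 2.93 CPM, so the Rag genes did not move together.

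In the list of stress-induced inhibitors, which also held the arginine sensor CASTOR1, 4 of 7 genes were higher and 1 lower. Of all genes, 43.5% were called higher and 41.1% lower. SESN1 and SESN2, which encode leucine-sensing sestrins, rose from 13.1 ± 1.09 CPM to 108 ± 0.949 CPM and from 31.8 ± 0.763 CPM to 127 ± 10.4 CPM. DDIT4, which encodes REDD1, rose from 116 ± 6.72 CPM to 379 ± 28.1 CPM. CASTOR1, an arginine sensor, had 1, 2 and 6 counts under DMSO and 18, 20 and 16 under THZ1 (log2 fold change 3.22, SE 0.48), and it was not called in the FPKM table (0.36, adjusted p = 0.089 by limma). CASTOR1 passed the filter on counts through its THZ1-treated libraries alone, so its call is no separate support for the rise. TRIB3, a pseudokinase that binds AKT, fell by 0.46 on the log2 scale.

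In the list of mTOR complex 1 outputs, which also held SGK1, a gene tied to mTOR complex 2, 4 of 10 genes rose and 6 fell. Of all genes, 43.5% were called higher and 41.1% lower. EIF4EBP1, the translational repressor 4E-BP1, had 135, 118 and 153 CPM under DMSO and 20.5, 25.9 and 23.1 CPM under THZ1, a log2 fold change of −2.54 (SE 0.10, adjusted p = 1.7e-20 by edgeR). Its relative EIF4EBP2 and the translation factors EIF4E and EIF4B fell with it (−1.75, −1.52 and −1.35). The S6 kinase genes differed, with RPS6KB1 lower (−0.92) and RPS6KB2 higher (1.07), and the ribosomal protein gene RPS6 was lower (−0.37). ULK1, which starts autophagy, rose (1.34), and so did TFEB, a transcription factor of lysosomal genes (0.33, adjusted p = 0.0083 by edgeR). TFEB was not called without DMSO-treated library 2 (0.21, adjusted p = 0.073), without THZ1-treated library 2 (0.25, adjusted p = 0.077), with library sizes alone (0.086) or in the FPKM table (0.12).

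SGK1, a kinase related to AKT and activated by mTOR complex 2, had 7, 10 and 4 counts in the DMSO-treated libraries and 254, 260 and 273 in the THZ1-treated libraries. This was 0.579 ± 0.241 CPM against 35.3 ± 1.66 CPM, and its log2 fold change of 5.89 (SE 0.21, adjusted p = 5.3e-22 by edgeR) was the highest of the 83 pathway genes tested. SGK1 passed the filter on counts through its THZ1-treated libraries alone, so its p-value is no separate support for the rise. In the deposited FPKM table, on the scale of log2(FPKM + 1), SGK1 went from 0.791 to 3.17, a difference of 2.38.

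The length of a gene on the chromosome was a feature the choice of the 9 genes did not use. When the 11929 protein-coding genes tested were placed by span in 10 bins of equal size, the median log2 fold change went from 0.97 in bin 1, the shortest, to −0.65 in bin 10. The 9 genes ranged from AKT1 with 26.4 kb in bin 5 to RPTOR with 422 kb in bin 10, and all but AKT1 lay in bins 7 to 10. In bins 7 to 10, 59.3% to 63.0% of the genes were called lower, and 48.3% in bin 5. PIK3R1 (86.1 kb) and PIK3R5 (86.8 kb) were lower than the −0.53 median of bin 8, and PIK3CA (92.0 kb) and PIK3CD (99.2 kb) were lower than the −0.59 median of bin 9. In bin 10, PIK3CB (182 kb) was lower than the median, whereas MTOR (156 kb, −0.52) and RPTOR (−0.04) were not. AKT2 (55.2 kb) was above the −0.51 median of bin 7 and AKT1 below the −0.24 median of bin 5. The part of gene span in these values was not tested.

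**Figure D5:**
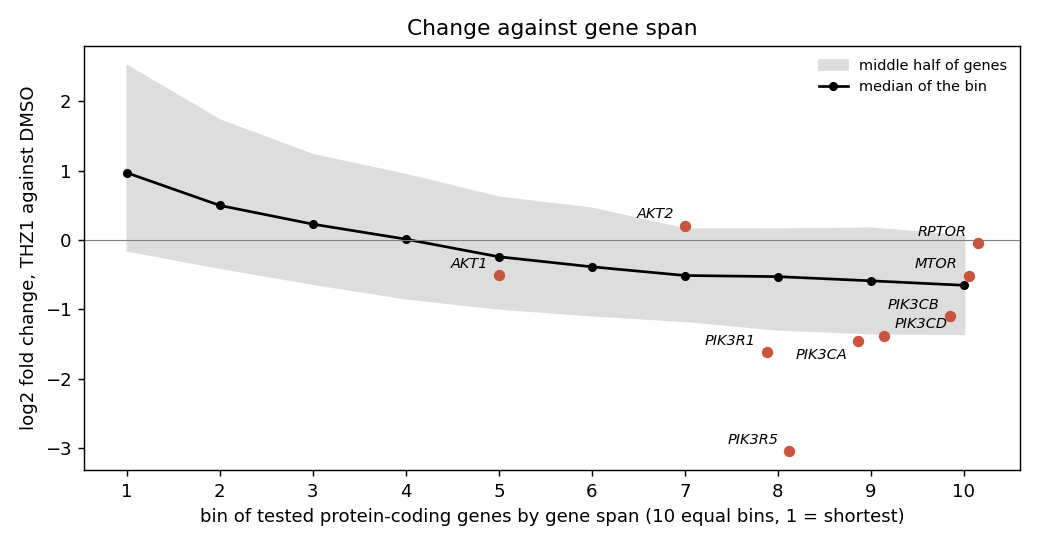
Log2 fold change, THZ1 against DMSO, by bin of gene span, with bin 1 of 10 the shortest. The black line is the median of the tested protein-coding genes in each bin, the grey band their middle 50% and the red points the 9 genes. AKT2 (0.21, or −0.04 with library sizes alone), MTOR (−0.52) and RPTOR lie above the line, and PIK3R5 at −3.04 lies furthest below it.

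The genes most like PIK3R5 and AKT2, the lowest and the highest of the 9, were sought among 10156 genes with a mean of at least 10 CPM by the root mean square difference of gene-centred log2 CPM over the 6 libraries. For PIK3R5 they were MIX23 (0.246), RAI14 (0.249) and SCD5 (0.262). Their log2 fold changes were −3.13, −2.33 and −2.52, beside −3.04 for PIK3R5. PIK3R5 itself averaged 2.12 CPM, below the 10 CPM asked of the others. The log2 CPM used an added prior count of 2, which is large beside its counts of 1, 5 and 4 under THZ1, so its nearest genes are uncertain. For AKT2 they were HSDL1 (0.014), UBQLN1 (0.020) and WDR90 (0.020). The 6 libraries fall into a DMSO-treated and a THZ1-treated set, so the likeness mainly carries the size of the difference between treatments.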

How the data were processed

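RNA-SEQ of total RNA from NALM6 cells was analysed, 3 libraries per treatment, grouped by the treatment in the labels. The authors deposited raw counts per gene. Per the labels, the submitters' processing notes name cutadapt, STAR, HTSeq, RSEM and GRCh37, and the annotation, strand setting and versions are not given in the sources used here. The authors also deposited FPKM values on a log2 scale for 16730 genes, read as log2(FPKM + 1), and these were used in place of the linear FPKM that the design assumed. PIK3CA and PIK3CD were not analysed in that table. The authors' own log2 fold changes, p-values and FDR values in it were not used.

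Counts were filtered with filterByExpr (10 counts at least, 15 in total), scaled with TMM factors, and the quasi-likelihood test of edgeR was run on all 16622 genes left, followed by Benjamini-Hochberg adjustment. Calls were made at an adjusted p-value below 0.05. Standard errors come from the size of the fold change over the root of F, and all tests are two-sided. TMM assumes that most genes keep their level. Symbols, coordinates and exons were taken from GENCODE 44 mapped to GRCh37, and start regions from RefSeq on GRCh38.p14, without conversion between builds. Pair ratios used 0.5 added counts. The code was tested on simulated counts in which few genes changed. In these data most genes were called, so that test does not bear on the scaling used here.

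The members and lists were chosen with earlier results of these data known. The rule for named genes takes the 9 members, the extremes of each list, direct partners (PIK3CG, PIK3R2, RICTOR, MLST8, TSC2, RHEB, DDIT4, SESN2, EIF4EBP1, RPS6KB1, IRS2, FOXO1, FOXO3), genes that did not pass the filter, and the 3 nearest patterns of the highest and lowest member. Other list genes and overlapping genes named in the text were chosen after their values were seen. Some results of the lists are not reported here. Alternatives changed the scaling (RLE, upper quartile, library sizes alone), the test (DESeq2), the filter (10 counts in every library, or none), the block by replicate number, the libraries kept or the table, with limma on the FPKM values (pseudocount 1 or 0.1, minimum mean 0.1 or 1, no filter), a log2 fold threshold of 1.5 and, for ratios, 1 added count. Canonical transcript length and left-out libraries for the shares were chosen after seeing the data. Depth limits PIK3R5, CASTOR1, SGK1 and PIK3R2, which have few counts. Tests ran in R 4.3.3 (edgeR 4.0.16, DESeq2 1.42.0, limma 3.58.1). Descriptions and figures were made in Python 3.11.15 (pandas 2.3.3, numpy 2.4.6, matplotlib 3.10.9, scipy 1.17.1).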

Additional observations from a re-analysis of the deposited data

How the results depend on the processing

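Of 144 values of the 9 genes under the alternatives, 130 kept their direction and side of the threshold, 5 lost the call, 5 gained one and 4 turned, and 7 of the 9 genes kept theirs under all alternatives run for them. Of 1090 values of 65 other pathway genes, 1016 were likewise kept. The number of members called lower, 7 with TMM, was 6 to 8 under the other scalings, tests, filters and tables. RPTOR was among them with library sizes alone (8 in all) and in the FPKM table (6 in all, without PIK3CA and PIK3CD). The 1 member called higher became 0 with library sizes alone, with no filter and in all 4 settings of the FPKM table, where the mean of at least 0.1 removed no gene. At a log2 fold change of at least 1.5, members numbered 0 higher and 2 lower, pathway genes 12 higher and 12 lower, and all genes 4088 higher and 2142 lower. The median of all log2 fold changes shifted, relative to TMM, by 0.19 (upper quartile), −0.25 (library sizes alone), 0.068 (RLE) and −0.18 (FPKM table). With more low genes tested it shifted by 0.60 with DESeq2 and 0.42 without a filter. AKT2 turned to −0.043 with library sizes alone. RPTOR turned to 0.026 (RLE), 0.15 (upper quartile) and 0.091 (at least 10 counts in every library). Under the same 3 settings PIK3R3 turned to 0.0079, 0.13 and 0.073, and TBC1D7 to 0.061, 0.19 and 0.13, with 0.013 by DESeq2. With library sizes alone RHEB turned to −0.21, RICTOR to −0.11 and TSC1 to −0.24, and without a filter RHEB to −0.048 and TSC1 to −0.073. In the FPKM table RHEB turned to −0.091 (−0.093 with pseudocount 0.1), RICTOR to −0.47 (−0.54), TSC1 to −0.26 (−0.28) and the ratio of RICTOR to RPTOR to −0.23. With single libraries left out, TSC1 ranged from −0.083 to 0.054, TBC1D7 from −0.12 to 0.049, RHEB from −0.015 to 0.064 and PIK3R3 from −0.14 to 0.0091. The cause was not tested. Same-numbered libraries of both treatments did not deviate together (correlations of −0.00, 0.00 and 0.02), so the numbers were not taken as pairs. With a replicate block 7181 genes were higher and 6786 lower, and the 9 members gave 1 higher and 7 lower, with AKT2 at 0.21. Low counts limit PIK3R5, CASTOR1 and SGK1, which left the table when 10 counts in every library were required.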
